A study of Mus musculus with 7 samples.

Results

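A set of 10 genes that glucocorticoids are known to induce in skeletal muscle, namely Fkbp5, Tsc22d3, Klf9, Klf15, Sgk1, Zbtb16, Cebpd, Pik3r1, Ddit4 and Dusp1, was followed in the quadriceps muscle of AR113Q and WT mice. They were found by the gene name or the current symbol of each array probe. All 10 genes were on the array, each with 1 probe, so that 10 of 39429 probes and 10 of 31131 named genes were described. Each of 7 single-dye Agilent mouse arrays held quadriceps RNA of 1 mouse, 4 WT and 3 AR113Q. The mice were C57BL/6 and 3 months old. The labels give no sex, and the study's reporting form states for its mice as a whole that they were male. AR113Q mice are a knock-in model of spinobulbar muscular atrophy and carry a humanized androgen receptor with 113 glutamine repeats in every cell that uses the receptor gene. The labels call the controls WT, while the study's text also describes a control line with a humanized receptor of non-expanded length, so whether the controls carried the humanized allele was not settled here. The question of the array comparison was which transcripts differed before the onset of motor dysfunction. No group received a hormone or drug according to the labels, and hormone levels of these mice were not analysed here.

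Glucocorticoids are steroid hormones of the adrenal cortex that follow the time of day and rise with stress and fasting. They bind the glucocorticoid receptor, a nuclear receptor held in the cytosol by chaperones, which then moves to the nucleus and binds a palindromic response element in DNA. In muscle this program lowers insulin signaling and protein synthesis and raises protein breakdown, and long exposure leads to atrophy of fast fibers. The 10 genes act at several steps. Fkbp5 encodes a cochaperone that dampens the receptor, and Tsc22d3 (GILZ) encodes a leucine zipper protein that mediates anti-inflammatory effects. Klf9, Klf15, Zbtb16 (PLZF) and Cebpd encode transcription factors. Ddit4 (REDD1) encodes an inhibitor of the growth kinase mTORC1, Pik3r1 encodes the regulatory p85 subunit of PI3K, Sgk1 encodes a kinase related to Akt, and Dusp1 encodes a phosphatase that switches off MAP kinases.

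The promoter sequences are shown because the receptor's element can be read in them directly. RefSeq promoter windows of 300 bases (250 before to 50 after the transcription start, build GRCm38.p6) were found for 8 of the 10 genes, 16 windows in all. No entry was matched for Cebpd and Zbtb16. The motifs searched were the response element, read as the half-sites AGAACA and TGTTCT spaced 3 bases apart, and its core ACANNNTGT, which lies within the element. Both are palindromes, so that 1 search covers both strands. The element was found in 1 of the 16 windows, a promoter of Sgk1, and in 3 of all 32851 windows (0.00913%). The core was found in 2 of the 16 windows, both of Sgk1, against 6.85% of all windows. Sgk1 had 6 of the 16 windows, more than any other gene. The first window below holds the element, starting 189 bases before the transcription start, and the second holds the core alone, starting 127 bases before it. Capitals mark the match.
Sgk1 (chr10:21993640-21993939, plus strand): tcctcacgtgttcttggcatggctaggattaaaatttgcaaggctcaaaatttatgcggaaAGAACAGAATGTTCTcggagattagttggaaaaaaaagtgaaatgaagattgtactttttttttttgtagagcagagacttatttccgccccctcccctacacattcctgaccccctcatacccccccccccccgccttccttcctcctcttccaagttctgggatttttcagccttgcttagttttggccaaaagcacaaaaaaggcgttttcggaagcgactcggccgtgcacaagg
Sgk1 (chr10:21978422-21978721, plus strand): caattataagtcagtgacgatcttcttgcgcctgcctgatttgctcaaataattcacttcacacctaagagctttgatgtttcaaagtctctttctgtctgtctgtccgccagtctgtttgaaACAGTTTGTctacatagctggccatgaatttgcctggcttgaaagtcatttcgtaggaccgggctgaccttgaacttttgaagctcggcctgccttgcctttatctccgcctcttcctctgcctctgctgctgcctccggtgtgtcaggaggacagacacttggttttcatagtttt
The windows of Fkbp5 and Ddit4, which were called higher in AR113Q quadriceps as described below, held neither motif. They are shown for comparison, in lower case throughout.
Fkbp5 (chr17:28486100-28486399, minus strand): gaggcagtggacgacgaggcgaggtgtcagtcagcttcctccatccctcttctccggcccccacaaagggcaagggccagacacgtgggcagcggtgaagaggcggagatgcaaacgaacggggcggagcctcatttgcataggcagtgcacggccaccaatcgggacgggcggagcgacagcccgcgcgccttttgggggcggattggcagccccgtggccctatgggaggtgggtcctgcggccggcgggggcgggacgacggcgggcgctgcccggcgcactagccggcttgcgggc
Ddit4 (chr10:59951721-59952020, minus strand): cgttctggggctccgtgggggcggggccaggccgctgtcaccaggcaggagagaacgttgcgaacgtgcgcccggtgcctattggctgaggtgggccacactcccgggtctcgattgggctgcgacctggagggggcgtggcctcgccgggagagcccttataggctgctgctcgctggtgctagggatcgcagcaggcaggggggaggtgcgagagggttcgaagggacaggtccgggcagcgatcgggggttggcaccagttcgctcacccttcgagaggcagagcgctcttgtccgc
These letters describe the windows and say nothing of elements elsewhere in a gene. The array probes of the 10 genes are located on another build, mm9, so probe and promoter coordinates cannot be set against each other.

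Fkbp5, Cebpd and Ddit4 were upregulated in AR113Q quadriceps, each about as strongly, with log2 differences of 1.65, 1.60 and 1.60. Zbtb16, Pik3r1, Klf9, Klf15 and Tsc22d3 had higher means in AR113Q muscle and Sgk1 and Dusp1 lower means, without being called. A probe was called when the limma test gave an adjusted p of at most 0.05 over all 20991 probes kept and the absolute log2 difference was at least 1. By this rule 3 of 10 genes were called higher and 0 lower, against 12.2% of all kept probes called higher and 12.6% called lower. The adjusted p alone was passed by 4 of the 10 genes, against 43.8% of all kept probes, so that this share was no larger than elsewhere on the array. At an unadjusted p of at most 0.05, 6 genes passed, against 52% of all kept probes. All 6 had higher means in AR113Q muscle, so that 6 of the 10 genes passed in that direction, against 26.3% of all kept probes. The median log2 difference of the 10 genes was 0.77, against 0.01 over all kept probes. The 10 genes were chosen with earlier results of these data known, so these shares and the median are a description. The groups did not overlap for 4 of the 10 genes, a share of 40% against 49.5% of all kept probes, so the lack of overlap was no more frequent here than elsewhere on the array. All values below are quantile-normalized log2 signals, and levels of different genes cannot be compared because each probe has its own brightness.

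**Figure D1:**
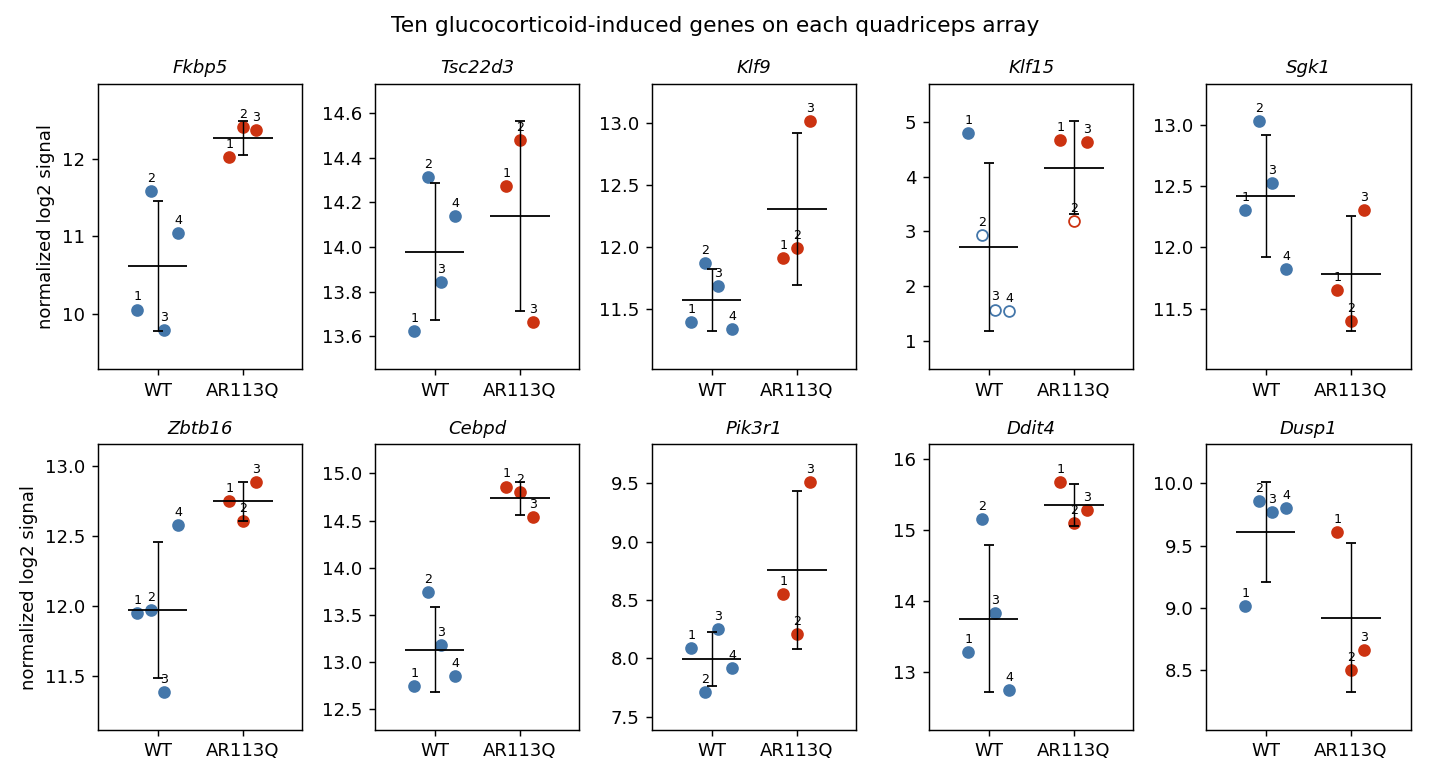
Normalized log2 signal (vertical axis, own scale for each gene) of the 10 genes on the 4 WT (blue) and 3 AR113Q (red) arrays. Numbers are the replicate, lines and bars the mean and SD, and open circles mark spots not well above background, which occurred for Klf15 alone. For Fkbp5 and Cebpd every AR113Q array lies above every WT array.

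For Fkbp5 the 4 WT mice, in the order 1 to 4, had log2 signals of 10.06, 11.58, 9.79 and 11.03. The 3 AR113Q mice had 12.02, 12.40 and 12.37. The groups did not overlap, the AR113Q mice lay close together (SD 0.21) and the WT mice were spread widely (SD 0.84). The signal was 3.14-fold higher in AR113Q muscle (95% interval 1.62 to 6.08, adjusted p = 0.0134, limma). The probe lies on the minus strand at chr17:28536060-28536119 of mm9.

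Tsc22d3 is commonly read as a sensitive target of the receptor. Its log2 signals were 13.62, 14.31, 13.84 and 14.14 in WT mice and 14.27, 14.48 and 13.66 in AR113Q mice. The groups overlapped almost fully, since AR113Q mouse 3 was below 3 of the WT mice. The log2 difference of 0.16 had an interval of -0.41 to 0.73 (adjusted p = 0.634, limma), so that an increase of the size seen for Fkbp5 lay outside the interval. The probe lies at chrX:137074094-137074153 (mm9, minus strand).

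Cebpd, a transcription factor of the C/EBP family that also responds to inflammation, had the smallest adjusted p of the 10 genes. Its WT log2 signals were 12.75, 13.74, 13.18 and 12.85, and its AR113Q log2 signals were 14.86, 14.81 and 14.54. The lowest AR113Q mouse was above the highest WT mouse. The signal was 3.04-fold higher (95% interval 2.03 to 4.54, adjusted p = 0.00173, limma), and the probe lies at chr16:15888459-15888518 (mm9, plus strand).

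Zbtb16, a zinc finger factor and a marked glucocorticoid target in many tissues, had WT log2 signals of 11.95, 11.97, 11.38 and 12.58. Its AR113Q log2 signals were 12.75, 12.61 and 12.88. The groups did not overlap, although WT mouse 4 was within 0.03 of the lowest AR113Q mouse. The log2 difference of 0.77 passed the adjusted p (0.0439, limma) and missed the fold threshold, and Zbtb16 was the only one of the 10 genes to do so. The adjusted p was missed when any mouse other than WT mouse 4 was left out (0.0730 to 0.102, limma). The probe lies at chr9:48462419-48462478 (mm9, minus strand).

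Klf9 and Klf15 are Kruppel-like factors that the receptor induces directly, and Klf15 drives amino acid breakdown in muscle. Klf9 log2 signals were 11.39, 11.87, 11.68 and 11.33 in WT mice and 11.91, 11.99 and 13.01 in AR113Q mice. The groups did not overlap, but 2 of the 3 AR113Q mice were just above the WT range, and AR113Q mouse 3 stood well above it. The log2 difference was 0.74 (interval 0.07 to 1.40, adjusted p = 0.0699, limma), and without that mouse it was 0.38. The Klf9 probe lies at chr19:23240410-23240469 (mm9, plus strand).

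Klf15 gave little signal. Its probe, at chr6:90425144-90425203 (mm9, plus strand), was well above background on 3 of the 7 arrays, those of WT mouse 1 and AR113Q mice 1 and 3. The log2 signals were 4.79, 2.93, 1.57 and 1.54 in WT mice and 4.67, 3.18 and 4.63 in AR113Q mice. The highest value of all was from a WT mouse. The log2 difference of 1.45 had an interval of -0.35 to 3.25 (adjusted p = 0.168, limma), and without WT mouse 1 it became 2.14 with an adjusted p of 0.0175. With background handled by normexp the difference was 0.21, so the size of a Klf15 difference could not be measured with this probe.

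Ddit4, the mTORC1 inhibitor, had WT log2 signals of 13.28, 15.15, 13.83 and 12.75, and AR113Q log2 signals of 15.67, 15.09 and 15.28. WT mouse 2 was above the lowest AR113Q mouse, and the other 3 WT mice were below all AR113Q mice. The signal was 3.02-fold higher in AR113Q muscle (95% interval 1.36 to 6.75, adjusted p = 0.0331, limma). The call was lost when WT mouse 1, 3 or 4 or any 1 AR113Q mouse was left out, with log2 differences of 1.26 to 1.72 and adjusted p-values of 0.0578 to 0.107. Without WT mouse 2 the log2 difference was 2.06 (adjusted p = 0.00303, limma). The probe lies at chr10:59412486-59412545 (mm9, minus strand).

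Pik3r1 encodes the p85 alpha subunit, which holds the catalytic subunit of PI3K and, in excess, limits insulin signaling. Its log2 signals were 8.09, 7.71, 8.25 and 7.92 in WT mice and 8.55, 8.21 and 9.51 in AR113Q mice. As for Klf9, AR113Q mouse 3 stood apart, and AR113Q mouse 2 lay within the WT range. The log2 difference was 0.76 (adjusted p = 0.0737, limma), and without AR113Q mouse 2 it was 1.04 and was called (adjusted p = 0.0319, limma). Without AR113Q mouse 3 it was 0.39 (adjusted p = 0.164, limma). The probe lies at chr13:102454406-102454465 (mm9, minus strand).

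Sgk1, the gene with the response element in 1 of its 6 promoter windows, went the other way in its mean. Its log2 signals were 12.31, 13.03, 12.53 and 11.83 in WT mice and 11.65, 11.40 and 12.31 in AR113Q mice. The groups overlapped, with 2 of the 3 AR113Q mice below all WT mice. The log2 difference was -0.64 with an interval of -1.36 to 0.09 (adjusted p = 0.139, limma). The interval left no room for an increase of the size measured for Fkbp5, Cebpd or Ddit4. The probe lies at chr10:21719507-21719566 (mm9, plus strand).

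Dusp1, an immediate early gene as well as a receptor target, had WT log2 signals of 9.02, 9.86, 9.77 and 9.80 and AR113Q log2 signals of 9.61, 8.50 and 8.66. The groups overlapped, with WT mouse 1 low among the WT mice and AR113Q mouse 1 high among the AR113Q mice. The log2 difference was -0.69 (interval -1.42 to 0.04, adjusted p = 0.114, limma). Without AR113Q mouse 1 it was -1.03 and was called lower (adjusted p = 0.0238, limma). The probe lies at chr17:26642796-26642853 (mm9, minus strand).

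**Figure D2:**
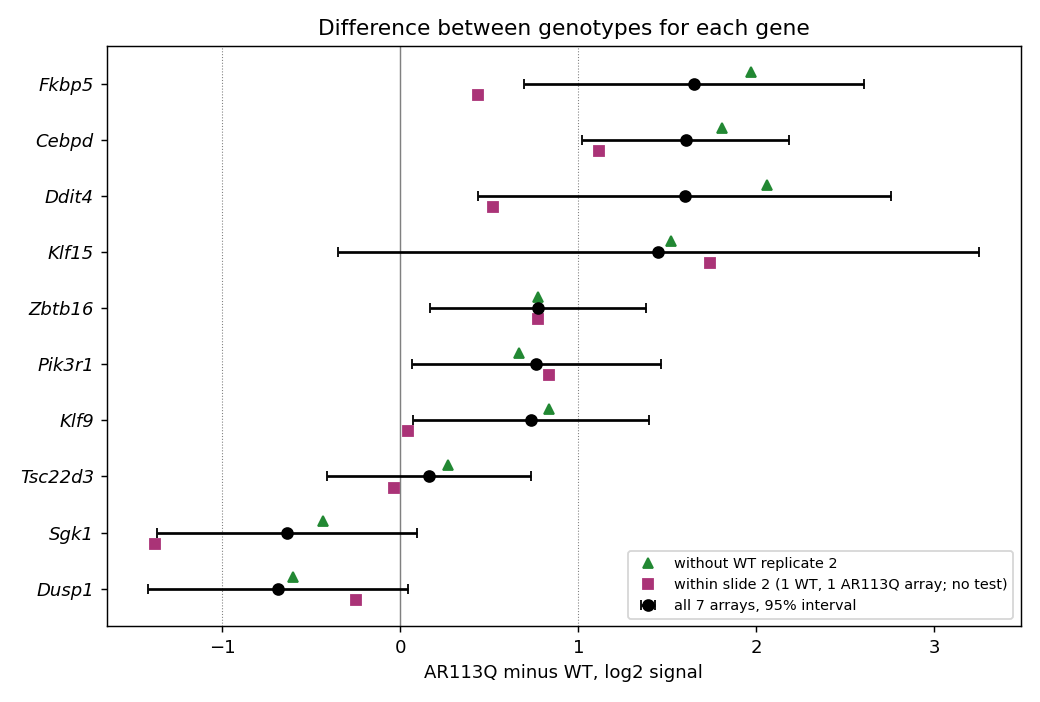
Difference in log2 signal, AR113Q minus WT (horizontal axis), for the 10 genes, with the 95% interval of the limma fit. Triangles leave out WT mouse 2, squares give the pair of arrays on slide 2, and dotted lines mark the fold threshold. Leaving out WT mouse 2 raised Ddit4 to 2.06 and Fkbp5 to 1.97.

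The WT mice differed among themselves in these genes. WT mouse 2 had the highest WT signal for 7 of the 10 genes, against 23.5% of all kept probes. Its log2 signal was above the mean of the other WT mice by 1.86 for Ddit4, 1.29 for Fkbp5 and 0.82 for Cebpd, and also by 0.81 for Sgk1, which was not higher in AR113Q mice. The WT SD of Ddit4 was larger than that of 98.1% of all kept probes and the WT SD of Fkbp5 larger than that of 96.4%. In AR113Q mice the SDs of both genes were unremarkable, larger than those of 45.7% and 28.8% of kept probes.

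WT mouse 2 and AR113Q mouse 1 shared a slide, the only 1 of 5 slides with both genotypes. Within that slide, with 1 array a side and no test, the log2 difference was 1.12 for Cebpd, 0.52 for Ddit4 and 0.44 for Fkbp5. It was -1.38 for Sgk1 and -0.25 for Dusp1, and 1.74 for Klf15, whose WT spot was not above background there. Klf9 and Tsc22d3 were near 0 within the slide, at 0.04 and -0.04, while Zbtb16 and Pik3r1 were at 0.77 and 0.84, close to their values over all mice. The directions were those of the whole comparison for 9 of the 10 genes, with Tsc22d3 the exception. With slide as a fixed effect the estimate rested on this pair and its error on the 2 WT arrays of 1 other slide. In that limma fit 0 of the 10 genes passed (adjusted p = 0.0989 for Cebpd, 0.687 for Fkbp5 and 0.584 for Ddit4), and 3 had an unadjusted p of at most 0.05, namely Cebpd, Klf15 and Sgk1. Over all kept probes 0 passed in that fit and 37.8% had an unadjusted p of at most 0.05, so these counts are not particular to the 10 genes. Beyond this pair, slide and genotype cannot be told apart.

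**Figure D3:**
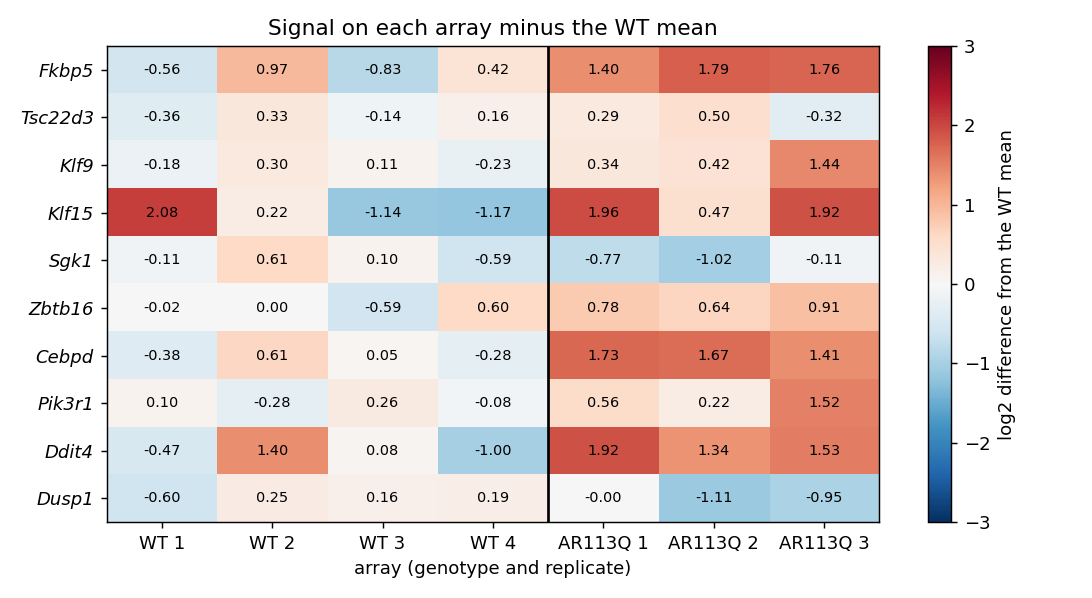
Log2 signal of each array minus the mean of the 4 WT arrays, for the 10 genes (rows) and the 7 arrays (columns). Fkbp5, Cebpd and Ddit4 are raised on all AR113Q arrays and also, by less for Fkbp5 and Cebpd, on the array of WT mouse 2.

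The receptor's own apparatus was called about as often as other genes. Of 13 genes for the receptor, the enzymes that make or destroy its ligand in tissue and the chaperones that hold the receptor, 12 were tested, 1 was called higher and 2 lower, with a median log2 difference of -0.12. Over all 16577 genes tested, each by its brightest kept probe, 11.2% were called higher and 13.1% lower, 24.3% in all, and the median was -0.01. Nr3c1, the receptor itself, had log2 signals of 12.38, 12.33, 12.40 and 12.27 in WT mice and 12.25, 12.17 and 12.24 in AR113Q mice (difference -0.13, adjusted p = 0.476, limma), and its other kept probe gave 0.27. Hsd11b1, which regenerates the active hormone inside cells, had WT log2 signals of 10.23 to 10.60 and AR113Q log2 signals of 10.89 to 11.61. Its log2 difference of 0.92 passed the adjusted p (0.00863, limma) and was just under the fold threshold. Without AR113Q mouse 2 it was 1.13 and was called (adjusted p = 0.00437, limma). H6pd, which supplies the cofactor of that enzyme, was called higher at 1.06 (adjusted p = 0.00549, limma), and was just under the fold threshold without AR113Q mouse 1 or without AR113Q mouse 2 (0.87). The cochaperones Fkbp4, which favours transport of the receptor, and Ppid were called lower, at -1.31 and -1.47 on the log2 scale.

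A list of 25 other genes that glucocorticoids induce was called higher for the most part. Of these, 24 were tested, 17 were called higher and 1 lower, against 11.2% and 13.1% of all genes tested, and the median log2 difference was 1.74, against -0.01 over all genes tested. The list was drawn up with results of these data known, so its count is a description. Several of its genes answer to other signals as well. Cdkn1a, a cell cycle inhibitor that p53 also induces, rose most, from 7.74 to 9.70 in WT mice to 14.00 to 14.28 in AR113Q mice on the log2 scale. Lcn2, an acute-phase protein gene, rose by 5.17 on the same scale. Fbxo32 (atrogin-1) and Trim63 (MuRF1), ubiquitin ligases of muscle atrophy, rose by 1.74 (adjusted p = 0.0222) and 1.93 (adjusted p = 0.00105, both limma). Trim63 ranged from 13.40 to 14.57 in WT mice and from 15.85 to 16.12 in AR113Q mice, and the call of Fbxo32 was lost without WT mouse 4 (adjusted p = 0.0534, limma) or AR113Q mouse 1 (adjusted p = 0.0847, limma). The 1 gene called lower was Mstn, the muscle growth inhibitor myostatin, at -1.30. Leaving out any 1 mouse gave 14 to 18 genes called higher. Of 12 inflammatory genes that glucocorticoids repress, 8 were tested, 3 were called higher and 3 lower (median -0.08). The lower count was 1 without WT mouse 2 or without AR113Q mouse 3, and 1 was called higher and 0 lower with normexp, with mean intensities (no background subtracted) or with the authors' own normalized values. Ccl7 fell by 2.88 and Nos2 by 1.62 on the log2 scale. Ccl7 was above background in 1 of 3 AR113Q mice, and its call was lost without WT mouse 2 or 3 or AR113Q mouse 1 or 3 (adjusted p = 0.0542 to 0.151, limma). Il6 was not well above background in any WT mouse and was at least 2.50-fold higher in AR113Q mice, a bound set by the dimmest probes measured on the WT arrays. Il6 passed the filter through the AR113Q mice alone, so its call is a description. With only probes above background on all arrays, 1 gene of this list was called higher and 2 lower. Il1r1 was called higher at 1.74.

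**Figure D4:**
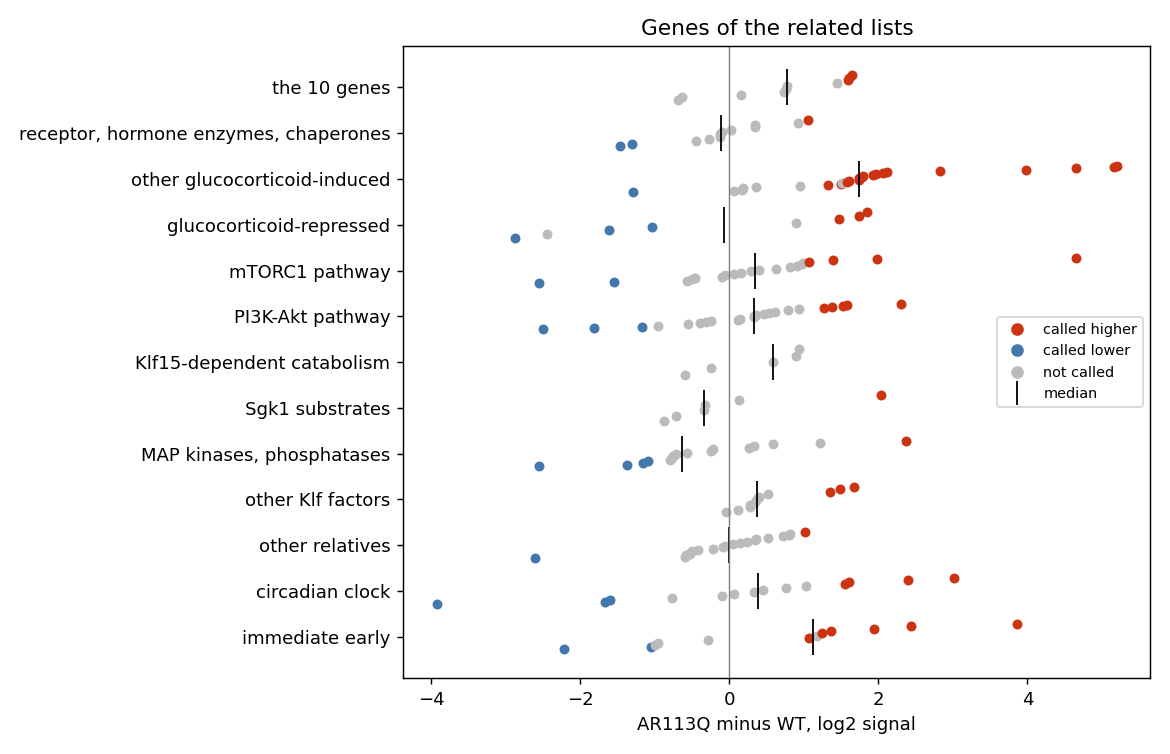
Difference in log2 signal, AR113Q minus WT (horizontal axis), of each tested gene of the 10 genes and of 12 related lists, by call, with the median of each list as a black tick. The other glucocorticoid-induced genes have a median of 1.74 and 17 of 24 genes called higher. The tick of the glucocorticoid-repressed genes, at -0.08, lies between genes called in opposite directions.

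Along the pathways on which the 10 genes act, calls went both ways, and their counts are to be read against the 11.2% of all genes tested called higher and the 13.1% called lower. Of 20 genes of mTORC1 and its regulators, where Ddit4 acts, 4 were called higher and 2 lower (median 0.35), 6 of 20 against 24.3% of all genes tested. The higher count rested on single mice, with 2 without AR113Q mouse 1 and 7 without AR113Q mouse 3, and it was 2 with normexp, mean intensities or the authors' values. Ddit4l, the relative of Ddit4 with the same action on mTORC1, fell by 2.55 on the log2 scale, from 12.10 to 13.53 in WT mice to 8.86 to 10.84 in AR113Q mice, opposite to Ddit4. Rragd, a GTPase that recruits mTORC1 to lysosomes, fell by 1.55. Eif4ebp1, the translation repressor that mTORC1 inactivates, rose by 1.98, and Sesn1, an mTORC1 inhibitor, rose by 4.66. Sesn1 was 13.39 to 13.61 in AR113Q mice against 10.06 to 10.56 in 3 WT mice and 4.75 in WT mouse 1, and its call was lost without AR113Q mouse 1 or 2 (adjusted p = 0.0548 and 0.0539, limma). Of 23 genes of insulin and IGF signaling through PI3K, the pathway of Pik3r1, 5 were called higher and 3 lower (median 0.33). Leaving out any 1 mouse gave 5 to 6 higher and 3 to 4 lower. With normexp, mean intensities or the authors' values 3 to 4 were called higher and 1 lower. The insulin receptor substrates went opposite ways, as Irs1 fell by 2.51 and Irs2 rose by 1.58 on the log2 scale. Trib3, an inhibitor of Akt, rose by 2.31, and Pik3cd, a catalytic subunit of leukocytes, fell by 1.81.

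Genes downstream of Klf15 and Sgk1 were counted next, then MAP kinases and immediate early genes, against the same shares of all genes tested (11.2% called higher, 13.1% lower). Of 7 amino acid breakdown genes that depend on Klf15, 5 were tested and 0 were called by limma and 3 passed the adjusted p alone, which 43.5% of all genes tested did. The 5, named here to show the whole list, had log2 differences of 0.89 for Bcat2, 0.94 for Prodh and 0.59 for Tat, which passed the adjusted p, and of -0.25 for Gpt and -0.60 for Aldh4a1, which did not. The higher count was 1 without WT mouse 2 or AR113Q mouse 1, and the lower count 1 without AR113Q mouse 3. Of 10 substrates and effectors of Sgk1, 6 were tested and 1 was called, Foxo3. It was not well above background in any WT mouse and was at least 1.60-fold higher in AR113Q mice. Foxo3 passed the filter through the AR113Q mice alone, so its call is a description. With only probes above background on all arrays, 0 genes of this list were called. Without WT mouse 1, AR113Q mouse 1 or AR113Q mouse 3, 1 was also called lower. Of 18 MAP kinases and phosphatases of the Dusp family, 16 were tested, 1 was called higher and 4 lower (median -0.64). The lower count was 2 without AR113Q mouse 1, the higher count was 2 without WT mouse 4, and both were 0 with normexp, mean intensities or the authors' values. Dusp10, above background in 2 of 3 AR113Q mice, fell by 2.56 on the log2 scale. Dusp7 fell by 1.37 while its other kept probe gave 0.12, and Dusp4, above background in 1 WT mouse, was higher by 2.37. Among 12 tested immediate early genes, the class to which Dusp1 also belongs, 6 were called higher and 2 lower (median 1.12), with 2 to 3 higher and 1 lower under normexp, mean intensities or the authors' values. Junb rose by 3.86 and was above background in 1 of 4 WT mice, Btg2 rose by 2.44, and Nr4a1 fell by 2.22. Egr2 fell by 1.06, and that call was lost when any mouse other than WT mouse 1 or AR113Q mouse 2 was left out.

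Relatives of the 10 genes were counted by family, and clock genes after them. Both are to be read against the 11.2% of all genes tested called higher and the 13.1% called lower. Of 11 other Kruppel-like factors tested, 3 were called higher and 0 lower (median 0.36), but 1 higher without AR113Q mouse 1 and 1 with normexp, mean intensities or the authors' values. The 2 most increased were Klf11 at 1.67, above background in 2 of 4 WT mice, and Klf10 at 1.48. The Klf10 call was lost without AR113Q mouse 1 (adjusted p = 0.0513, limma). Of 20 tested relatives of Cebpd, Tsc22d3, Fkbp5 and Zbtb16, 1 was called higher and 1 lower (median -0.01). Bcl6, a zinc finger repressor related to Zbtb16, fell by 2.61 on the log2 scale, and Fkbp15 rose by 1.02 and was not called without WT mouse 1 or 4 or AR113Q mouse 1. Hormone release follows the time of day, and of 14 tested genes of the circadian clock 4 were called higher and 3 lower (median 0.39). Dbp, a clock output factor, fell by 3.92, from 12.68 to 14.62 in WT mice to 9.65 to 10.07 in AR113Q mice. Bhlhe41 fell by 1.67, Cry2 rose by 3.02 and Arntl (BMAL1) by 2.40, and the Arntl call was lost without WT mouse 2 or any 1 AR113Q mouse (adjusted p = 0.0562 to 0.0738, limma). The labels give no time of tissue collection, and the part of the clock in the values of the 10 genes was not tested.

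The markers were those of fast skeletal muscle, which cannot tell quadriceps from another fast muscle. The marker counts are to be read against the 11.2% of all genes tested called higher and the 13.1% called lower. All 10 fast fiber markers were above background on all arrays, with summed linear signals of 1007477 to 1174352 in WT mice and 841077 to 1122780 in AR113Q mice, and Mylpf alone was called, at -1.37 on the log2 scale (its other kept probe gave -0.57). Adipocyte markers were lower in AR113Q muscle, 5 of 7 called, with sums of 61112 to 103333 in WT mice and 38591 to 46643 in AR113Q mice. Adipoq (adiponectin) fell by 2.71 and Retn (resistin) by 2.31 on the log2 scale. Macrophage markers had sums of 6282 to 11356 in WT mice and 4171 to 5678 in AR113Q mice, with 3 of 6 called lower, most of all Adgre1 (-1.94) and Lyz2 (-1.30), and Cd163 called higher at 1.18. The Cd163 call was lost without AR113Q mouse 2 and the Lyz2 call without AR113Q mouse 3 (adjusted p = 0.0539, limma). The sums of fibroblast, endothelial and red blood cell markers overlapped between genotypes, with 3 of 6, 0 of 6 and 0 of 5 called lower and 0, 1 and 0 called higher. The red blood cell sums were 120981 and 214679 in WT mice 3 and 4, whose arrays shared a slide, and 44483 to 57833 in the other 5 mice. The fibroblast sum rested mostly on Dcn, the brightest of its 6 genes. The 3 fibroblast genes called lower were the matrix genes Col3a1 (-4.62), Col1a1 (-3.27) and Lum (-2.39), and the list's other 3, named here to show the whole list, were Dcn at 0.41, Pdgfra at -0.27 and Dpt at -0.96, the last past the adjusted p alone (0.0162, limma). The endothelial gene was Cldn5, at 1.30, whose call was lost without AR113Q mouse 2 or 3. The part of these cells in the values of the 10 genes was not tested, and in whole muscle fewer cells of a type and less RNA per cell cannot be told apart.

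**Figure D5:**
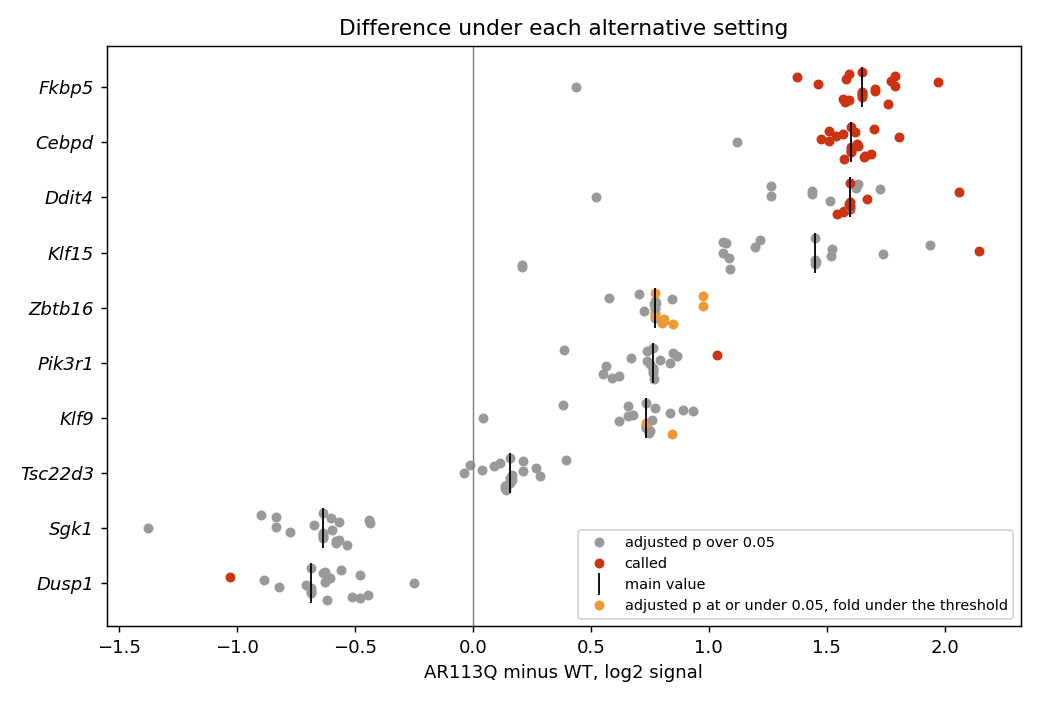
Difference in log2 signal, AR113Q minus WT (horizontal axis), of the 10 genes under each alternative setting (dots, 18 for Klf15 and 20 for the others), coloured by whether the gene was called, with the main value as a black tick. Fkbp5 and Cebpd are called under 19 of 20 settings, Ddit4 under 10 of 20, and the other genes under at most 1.

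The 3 calls differed in how well they held when the processing, the model or the mice included changed. Fkbp5 and Cebpd were called under 19 of 20 alternative settings and lost the call with slide as a fixed effect, with log2 differences of 0.44 to 1.97 and 1.12 to 1.81. The settings were not independent. The mean over a gene's probes, for example, left the log2 differences of these single-probe genes unchanged. Ddit4 was called under 10 of 20, and its losses included leaving out WT mouse 1, 3 or 4 or any 1 AR113Q mouse. Zbtb16 passed the adjusted p under 11 of 20 and the fold threshold under none, with log2 differences of 0.58 to 0.98. Tsc22d3 and Sgk1 were called under none of 20, and the Sgk1 difference stayed negative, from -1.38 to -0.43.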

How the data were processed

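Per the labels and methods, the authors hybridised Cy3-labelled quadriceps RNA of 7 mice to Agilent arrays and extracted spots with Feature Extraction 10.7.3.1. The deposited scanner files give each spot an intensity from which background had been subtracted and spatial trend removed. The deposited table of log2 values, quantile normalized by the authors, lists 18592 probes and served as an alternative. The arrays had 18785 to 22013 probes above background, 94 to 151 outlier spots and 0 saturated spots. The number of arrays limits the precision.

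Control and outlier spots were left out, log2 intensities of 43020 spots were quantile normalized, and replicate spots were averaged per probe. The filter, a signal well above background on 3 or more of 7 arrays, left 20991 of 39429 probes. All 10 genes passed, Klf15 through exactly 3 arrays. Genotypes were compared with limma 3.58.1 (lmFit, eBayes) in R 4.3.3, with Benjamini-Hochberg adjustment over all kept probes. Names came from the scanner files or, by accession, from RefSeq (28330 probes). Background subtraction makes low log2 values less certain.

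The text names the 10 genes, the 2 most increased and decreased called genes of a list, Nr3c1, Hsd11b1, Fbxo32 and Trim63, and otherwise says so or gives a count's few members. The genes and the 12 related and 7 marker lists were chosen with earlier results of these data known. The result of 1 marker list is not reported here. Alternatives changed the scaling, background, filter, outlier spots, variance model, array weights, slide, replicate block, probe of a gene and arrays included. Same-numbered mice did not deviate together (r of -0.02 to 0.16 for 3 pairs), so numbers were not taken to pair them.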

Additional observations from a re-analysis of the deposited data

Results flagged for a closer look

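Dixon's ratio, the gap of the most distant WT mouse to its nearest neighbour divided by the range of the 4 WT mice, was above its critical value at the 95% level for 5 of 58 genes named in the comparisons. Chance alone marks about 1 in 20 such groups, and AR113Q mice, being 3, were not tested.

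Among the 10 glucocorticoid-induced genes it was passed by Dusp1 (0.897), where WT mouse 1 had a log2 signal of 9.02 and the other WT mice 9.77 to 9.86. For Sesn1 (0.914) WT mouse 1 was at 4.75 and the other WT mice at 10.06 to 10.56. For H6pd (0.896) WT mouse 4 was at 11.08 and the others at 10.84 to 10.87, and for Ccl7 (0.911) WT mouse 4 was at 9.11 and the others at 5.02 to 5.38. For Mylpf (0.964) WT mouse 2 was at 12.10 and the others at 12.39 to 12.40.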

How the results depend on the processing

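Of the 10 genes, 3 were called higher, 0 lower and 4 passed the adjusted p, which 43.8% of all kept probes did. In the related lists, chosen with earlier results known, 43 genes were called higher and 21 lower. Of the 43, 17 came from the list of other glucocorticoid-induced genes. Over all genes tested 11.2% were called higher and 13.1% lower. With slide as a fixed effect all these counts were 0, as were those over all probes, of which 7928 had an unadjusted p of at most 0.05. Without a filter on dim probes and with array weights, 2 of the 10 genes passed the adjusted p. The list counts were 8 lower with normexp, 9 lower with mean intensities, and 27 higher and 8 lower with the authors' values. Over all probes, 2555 higher and 2653 lower became 975 and 1100 with normexp, 1067 and 1197 with mean intensities, and 735 and 857 with the authors' values, which list fewer probes. Among the genes named, Ccl7, Nos2, Rragd, Pik3cd, Bhlhe41, Dusp7, Dusp10, Egr2 and Fkbp15 lost the call in all 3, and Il6, Foxo3, Dusp4 and Klf11 with normexp and with mean intensities. The cause was not tested.

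Leaving out each mouse in turn gave 2 to 3 of the 10 genes called higher, 0 to 1 lower (Dusp1, without AR113Q mouse 1) and 2 to 3 passing the adjusted p. Without WT mouse 1 the genes called were Fkbp5, Cebpd and Klf15, and without AR113Q mouse 2 Fkbp5, Cebpd and Pik3r1. In the lists it gave 33 to 44 higher and 19 to 23 lower, and 36 of 49 named and called genes kept the call without each mouse. Tsc22d3 ran from -0.0108 (without AR113Q mouse 2) to 0.397 and was at -0.0375 with slide as a fixed effect, and Nr3c1 changed sign with the mean of its probes (0.0709). With replicate number as a block, 2 of the 10 genes were called higher and 3 passed the adjusted p, Ddit4 being lost (adjusted p = 0.0849, limma). Klf15 has no value with the authors' table or the filter on all arrays. Its dim probe limits what can be said of it.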
